A study of Rattus norvegicus with 12 samples.

Results

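The genes of the mitochondrial respiratory chain and of the ATP synthase were read on 12 microarrays of rat corpus luteum (CL). Members were all genes that the array's annotation names with a single symbol beginning with Ndufa, Ndufb, Ndufc, Ndufs, Ndufv, Sdha, Sdhb, Sdhc, Sdhd, Uqcr, Cox4i, Cox5, Cox6, Cox7, Cox8 or Atp5, and 83 of 14506 genes met this rule. They held 32 subunits of complex I, 4 of complex II, 7 of complex III, 16 of complex IV and 15 of the ATP synthase, with the ATP synthase inhibitor Atp5if1, 6 assembly factors and 2 pseudogene symbols. The rule itself uses symbols and no measured value, though it was set with earlier results of these data known, and 11 members with more than 1 probe set were read from the probe set with the highest mean over the 12 arrays.

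CL were taken from pregnant Harlan Wistar rats, with RNA of 1 animal on each array and 3 arrays per group. The D12 group was collected on day 12 of pregnancy without treatment. The other groups were collected on day 16, 96 h after treatment had begun, and had received vehicle (VEH), or oral anastrozole, an aromatase inhibitor (AI, 1 mg/kg BW daily for 4 days), or AI together with subcutaneous 17β-estradiol (AI+E2, 10 µg of E2 per day). Aromatase makes E2 from androgen, so the AI group asked what the loss of E2 does in the CL and the AI+E2 group what E2 given back does. The paper reports that AI also raised testosterone in serum and CL. In AI against VEH the loss of E2 and the rise of androgen cannot be told apart. In VEH against D12 the 4 days of pregnancy and the vehicle cannot be told apart, and no source used here gives the animals' age.

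The respiratory chain passes electrons from NADH through complex I, or from succinate through complex II, to ubiquinone, complex III, cytochrome c, complex IV and oxygen. Complexes I, III and IV pump protons across the inner mitochondrial membrane, and the ATP synthase uses their return to make ATP. In the CL the side chain of cholesterol is cut inside the mitochondrion, as the opening step of progesterone synthesis, so the steroid-making luteal cell is rich in these organelles. The few chain subunits encoded by mitochondrial DNA do not carry these symbols and were not analysed here.

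All values are log2 signals after the authors' RMA normalization, on which a difference of 1 is a doubling, and signals of different genes are not set against each other. A gene was said to rise or fall where limma's adjusted p over the 14506 genes was under 0.05. In whole CL tissue, fewer cells of a type and less RNA per cell cannot be told apart. The CL identity of the tissue was borne out by Cyp11a1, the side-chain cleavage enzyme, at 12.59 to 13.01, and by Star, the cholesterol carrier, at 12.58 to 12.89 over the 12 arrays. Array medians lay between 6.51 and 6.56, the correlation of arrays over all probe sets was 0.992 to 0.997 within groups and 0.982 to 0.992 between groups, and no array stood apart from its group.

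Of the 83 genes, 46 rose or fell in at least 1 of the 4 comparisons and 37 in none. The matching count over all genes was not made, so the 46 is not read as a trait of the set. Changes were small. Among the 83, the largest was a 1.63-fold rise of Ndufb8 between D12 and VEH, and the SE of a difference ran from 0.0533 to 0.180. Reading against all genes was needed, because 66 of the 83 lay among the 25% of genes with the highest means, where calls of either direction were more frequent than elsewhere.

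Under AI 16 members fell and 6 rose against VEH. The 16 were 19.3% of the members, against 11.0% of all genes and 25.8% of the 25% of genes with the highest means, so the share that fell was no larger than among other strongly detected genes. Members that rose made up 7.23%, against 5.91% of all genes and 11.3% of the strongly detected ones. The median difference was -0.08 for the members, 0.01 for all genes and -0.07 for the strongly detected ones. This balance moved with the scaling of the arrays: after quantile normalization was applied once more to the genes, 12 members rose and 12 fell, and after it was applied to all probe sets, 9 rose and 13 fell. The median of all genes was 0.01 under each of these scalings.

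With E2 given back, AI+E2 set against AI had 26 members that rose and 1 that fell. The rise took in 31.3% of the members, against 8.65% of all genes and 21.1% of the strongly detected ones, and the fall took in 1.20%, against 4.13% and 8.41%. The members' median difference was 0.14, against -0.02 for all genes and 0.06 for the strongly detected ones. Renewed quantile normalization left 23 up and 4 down over genes and 24 up and 3 down over all probe sets. Sdhb and Ndufs8 were among those called lower in both of these alternatives. The methods' t-test called fewer members, and its counts stand beside those of all genes in the closing section. AI against VEH and AI+E2 against AI share the 3 AI arrays, so an AI array that lies low pushes both in opposite directions, and their values are given side by side without counting genes that turned.

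Setting AI+E2 against VEH leaves the AI arrays out, and there 13 members rose and 2 fell. The rise took in 15.7% of the members, against 6.11% of all genes and 13.8% of the strongly detected ones. Members that fell made up 2.41%, against 6.90% of all genes and 14.1% of the strongly detected ones. The median was 0.05 over the members and -0.01 over all genes. From D12 to VEH, 19 members rose and 3 fell, which was 22.9% and 3.61% of the members, against 6.91% and 3.23% of all genes and 15.9% and 6.84% of the strongly detected ones. The median was 0.10 over the members, -0.02 over all genes and 0.04 over the strongly detected ones. The 3 comparisons with VEH share the 3 VEH arrays, so their directions are not independent of each other.

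**Figure D1:**
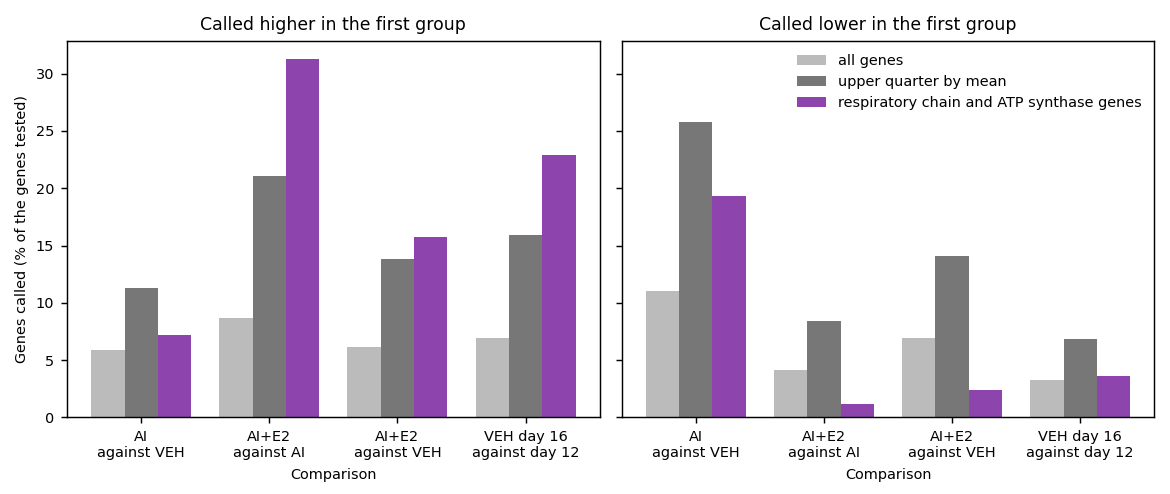
Share of genes called higher (left) or lower (right) in the first group of each comparison, in percent of the genes tested, for all 14506 genes (light grey), the 25% of genes with the highest means (dark grey) and the 83 respiratory chain and ATP synthase genes (purple). The purple bar stands above both grey bars for the rise in AI+E2 against AI (31.3%) and lies between them for the fall in AI against VEH (19.3%).

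The arrays of a group did not move as a block. Taking each member's deviation from its own mean over 12 arrays, the median deviation of the 83 was -0.06, 0.00 and -0.09 on the AI arrays and 0.12, 0.05 and 0.13 on the AI+E2 arrays. On the VEH arrays it was 0.05, 0.04 and -0.02, and on the D12 arrays -0.10, -0.14 and -0.01. Each AI+E2 array therefore lay above each AI array, whereas AI overlapped with VEH and with D12. AI replicate 2 was the highest of the AI arrays and VEH replicate 3 the lowest of the VEH arrays.

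**Figure D2:**
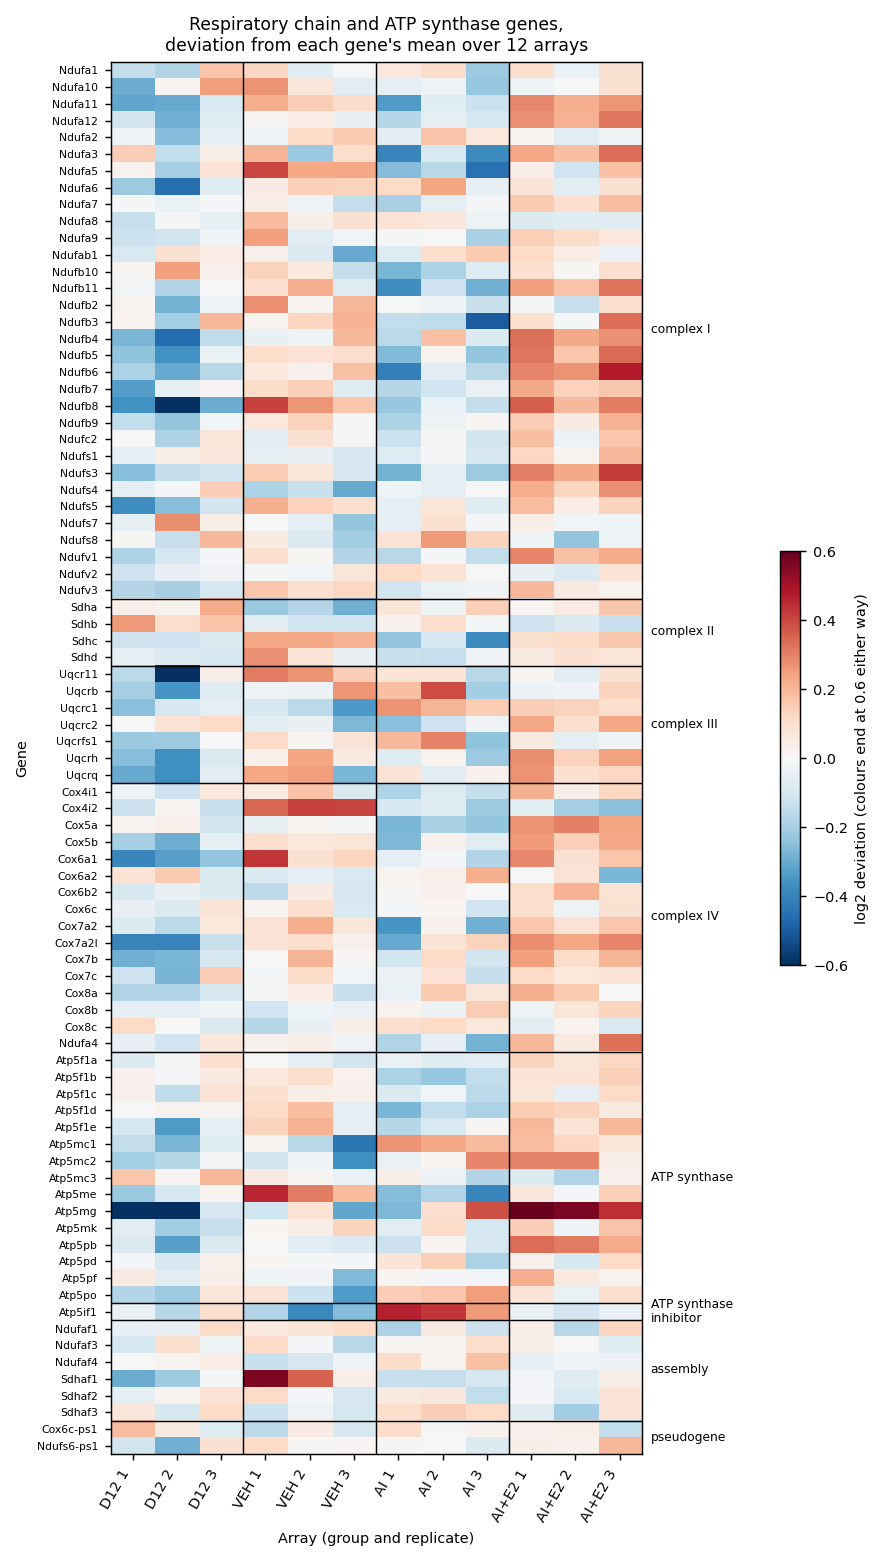
Heat map of the 83 genes (rows, by role) on the 12 arrays (columns), coloured by the log2 deviation of each value from that gene's mean over all arrays. The AI+E2 columns are red in most rows of complex I and complex IV, the D12 columns are mostly blue there, and Atp5if1 is red on the 3 AI arrays.

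Promoter sequences, from 250 bases before to 50 bases after the transcription start, were found for 73 of the 83 members in RefSeq (assembly GRCr8) by gene identifier. They were searched on both strands for the core site of the nuclear respiratory factor NRF1 (GCGCATGC), the ETS site read by GABP (CCGGAAG), the YY1 site (AAGATGGCG), the site shared by the ERR receptors and NR5A1 (CAAGGTCA) and an estrogen response element (GGTCANNNTGACC), whose arm GGTCA is also the end of the ERR site. Of the members, 13.7% held the NRF1 core, against 2.66% of all 27457 promoters of this length. The ETS site was in 32.9% against 9.22%, the YY1 site in 11.0% against 1.93%, and the ERR site in 5.48% against 1.48%. The estrogen response element was in 0 of the 73 and in 7 of all promoters. At least 1 of these motifs was in 36 of the 73. A match is a run of letters and not a shown binding site.

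Promoters of 4 genes whose values are described next are shown as examples of the NRF1, YY1 and ETS motifs, 5′ to 3′ on the gene's strand, with the matched letters in capitals. Uqcrc1 (chr8:118467973-118468272, plus strand) rose with AI and held the NRF1 core from base -39 and the YY1 site from base -1, counted from the start. Ndufa11 (chr9:1637364-1637663, plus strand) fell with AI and rose with E2, and 4 overlapping matches to the NRF1 core on either strand made 1 unbroken run from base -97. Ndufb8 (chr1:253362887-253363186, minus strand), the member that changed most with day, held the YY1 site from base 22. Cox4i1 (chr19:65630133-65630432, plus strand) rose with E2 and held the ETS site on the opposite strand from bases 4 and 24.
Uqcrc1: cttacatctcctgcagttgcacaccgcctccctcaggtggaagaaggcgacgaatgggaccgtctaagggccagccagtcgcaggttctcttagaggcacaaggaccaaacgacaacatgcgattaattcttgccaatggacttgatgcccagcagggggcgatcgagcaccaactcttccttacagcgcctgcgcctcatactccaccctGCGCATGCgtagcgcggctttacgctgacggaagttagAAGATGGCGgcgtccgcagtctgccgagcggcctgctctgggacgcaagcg
Ndufa11: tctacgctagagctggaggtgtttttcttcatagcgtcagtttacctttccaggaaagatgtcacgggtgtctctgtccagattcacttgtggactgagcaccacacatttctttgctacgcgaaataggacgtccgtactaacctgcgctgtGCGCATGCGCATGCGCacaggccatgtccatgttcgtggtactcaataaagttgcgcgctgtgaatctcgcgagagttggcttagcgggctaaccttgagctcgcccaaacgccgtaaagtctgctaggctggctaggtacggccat
Ndufb8: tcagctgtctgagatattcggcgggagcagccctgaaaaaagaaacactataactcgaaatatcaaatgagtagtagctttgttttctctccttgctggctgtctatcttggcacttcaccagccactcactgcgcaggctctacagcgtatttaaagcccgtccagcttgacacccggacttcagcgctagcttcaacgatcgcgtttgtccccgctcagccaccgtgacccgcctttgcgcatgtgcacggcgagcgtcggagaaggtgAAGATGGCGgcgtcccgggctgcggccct
Cox4i1: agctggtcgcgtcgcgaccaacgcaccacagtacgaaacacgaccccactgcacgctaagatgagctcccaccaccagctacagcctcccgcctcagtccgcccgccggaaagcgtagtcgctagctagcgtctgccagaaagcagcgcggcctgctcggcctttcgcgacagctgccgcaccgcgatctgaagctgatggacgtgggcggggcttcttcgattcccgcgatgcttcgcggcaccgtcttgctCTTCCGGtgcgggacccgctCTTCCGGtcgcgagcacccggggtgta

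Complex I takes electrons from NADH and is the largest of the complexes. Of its 32 measured genes, 7 fell and 0 rose under AI by limma (13 and 2 at an unadjusted p under 0.05; 0 and 0 by the methods' t-test after adjustment), with a median of -0.13 (all genes 0.01). When E2 was added to AI, 14 rose, which was 43.8% of the complex, and 0 fell by limma (21 and 1 at an unadjusted p under 0.05; 1 and 0 by the methods' t-test), with a median of 0.22 (all genes -0.02). Against VEH, 4 rose in AI+E2, and from D12 to VEH 9 rose and 1 fell, with medians of 0.08 and 0.15. Those falling under AI were 21.9% of the complex, against 11.0% of all genes and 25.8% of the strongly detected ones. For the 43.8% that rose with E2 these shares were 8.65% and 21.1%. Of the complex, 12.5% rose in AI+E2 against VEH, against 6.11% and 13.8%, and 28.1% from D12 to VEH, against 6.91% and 15.9%.

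The Ndufb genes encode accessory subunits of the membrane arm. Of 10 measured, 4 fell under AI and 6 rose when E2 was added to AI, and Ndufb2, Ndufb9 and Ndufb10 were called in none of the 4 comparisons. The fall under AI took in 11.0% of all genes and 25.8% of the strongly detected ones, and the rise with E2 8.65% and 21.1%. Whether the Ndufb genes differ from the other members was not tested. Ndufb6 read 10.88, 10.84 and 10.99 in VEH, 10.40, 10.75 and 10.65 in AI, and 11.11, 11.08 and 11.29 in AI+E2. The 3 treatment groups did not overlap, with AI lowest and AI+E2 highest. Ndufb6 fell by 0.30 on the log2 scale under AI (SE 0.0857, adjusted p = 0.0232) and rose by 0.56 in AI+E2 against AI (adjusted p = 0.000358), the largest rise of the set in that comparison, and its fall under AI lost its call (-0.25) after quantile normalization over genes. D12 arrays, at 10.62, 10.51 and 10.65, lay in the range of AI.

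Ndufb11, another membrane arm subunit, read 10.87, 10.98 and 10.70 in VEH, 10.39, 10.64 and 10.48 in AI, and 11.01, 10.94 and 11.09 in AI+E2. AI lay below both other groups without overlap, while VEH and AI+E2 met at their edges. The difference was -0.34 in AI against VEH (adjusted p = 0.00959) and 0.51 in AI+E2 against AI (adjusted p = 0.000677). Its call under AI was lost without VEH replicate 2 and without AI replicate 1.

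Ndufb8 showed the widest span with day of pregnancy. Its values were 7.86, 7.59 and 7.93 on D12 and 8.63, 8.49 and 8.38 in VEH, a rise of 0.71 (1.63-fold, SE 0.0897, adjusted p = 0.000107). In AI it read 7.99, 8.18 and 8.08, below VEH by 0.42 (adjusted p = 0.00404), and in AI+E2 8.58, 8.42 and 8.53. AI+E2 and VEH overlapped and differed by 0.01, with a 95% interval of -0.18 to 0.20.

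Ndufa11 and Ndufa5 are both accessory subunits. Ndufa11 rose by 0.39 from D12 to VEH (adjusted p = 0.00369), differed by -0.34 under AI (adjusted p = 0.00572) and rose by 0.44 in AI+E2 against AI (adjusted p = 0.00115). For Ndufa5 the arrays were 7.89, 7.72 and 7.73 in VEH, 7.23, 7.32 and 7.05 in AI, and 7.53, 7.37 and 7.67 in AI+E2. Its difference of -0.58 in AI against VEH (adjusted p = 0.000468) was the largest within complex I, and AI+E2 stood between the groups, 0.32 above AI (adjusted p = 0.0375). Ndufb3 (-0.39 and 0.41) was also called in both, and its call under AI was lost without VEH replicate 2, VEH replicate 3 or AI replicate 3 and after quantile normalization.

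The core subunits include those that carry the flavin and the iron-sulphur clusters. Ndufs3, a core subunit, read 8.71, 8.94 and 8.78 in AI and 9.30, 9.22 and 9.42 in AI+E2, with VEH at 9.15, 9.07 and 8.90. It rose by 0.50 in AI+E2 against AI (adjusted p = 0.000536) and by 0.27 in AI+E2 against VEH (adjusted p = 0.0360). Ndufv1, which holds the flavin and the NADH site, rose by 0.34 (adjusted p = 0.00716) and by 0.25 (adjusted p = 0.0378) in the same comparisons.

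The other core subunits read here passed the test in none of the 4 comparisons. Between AI+E2 and AI the difference was 0.17 for Ndufs1 (95% interval 0.05 to 0.30), -0.01 for Ndufs7 (-0.19 to 0.17), -0.26 for Ndufs8 (-0.45 to -0.06) and -0.09 for Ndufv2 (-0.22 to 0.05). Ndufs8 therefore lay on the other side of 0 from Ndufs3 and Ndufv1, and was called lower (-0.36 and -0.33) after the 2 quantile normalizations.

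Ndufs4, an accessory subunit near the NADH end, read 11.24, 11.29 and 11.44 on D12, 11.11, 11.16 and 10.99 in VEH, 11.27, 11.24 and 11.30 in AI, and 11.52, 11.42 and 11.57 in AI+E2. VEH lay below all 3 other groups, and AI+E2 above AI and VEH. Ndufs4 fell by 0.24 from D12 to VEH (adjusted p = 0.0375, lost without any of VEH replicate 1, VEH replicate 3, D12 replicate 2 and D12 replicate 3), rose by 0.24 in AI+E2 against AI (adjusted p = 0.0330) and rose by 0.42 in AI+E2 against VEH (adjusted p = 0.000639).

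The remaining risers in AI+E2 against AI were Ndufa3 (0.54), Ndufb5 (0.43), Ndufa12 (0.38), Ndufb7 (0.29) and Ndufa7 (0.23), all accessory subunits. Ndufa3 read 8.92, 9.22 and 8.93 in AI and 9.55, 9.49 and 9.65 in AI+E2 (adjusted p = 0.00364), whereas VEH, at 9.52, 9.09 and 9.42, overlapped with both. Ndufa12 was also higher in AI+E2 than in VEH, by 0.27 (adjusted p = 0.0122). Ndufb7 and Ndufa7 lost their calls after the 2 quantile normalizations. From D12 to VEH the other risers were Ndufs5 (0.40), Ndufa6 (0.36), Ndufb4 (0.34), Ndufb5 (0.31), Ndufb6 (0.31), Ndufa5 (0.32) and Ndufv3 (0.29), of which Ndufb4 and Ndufa5 lost their calls after the 2 quantile normalizations. Ndufv3, a subunit near the flavin, also fell by 0.19 under AI (adjusted p = 0.0414), a call that these normalizations removed. A further probe set of Ndufv3, with a lower mean, gave -0.03 from D12 to VEH, so the probe sets of this gene disagreed.

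**Figure D3:**
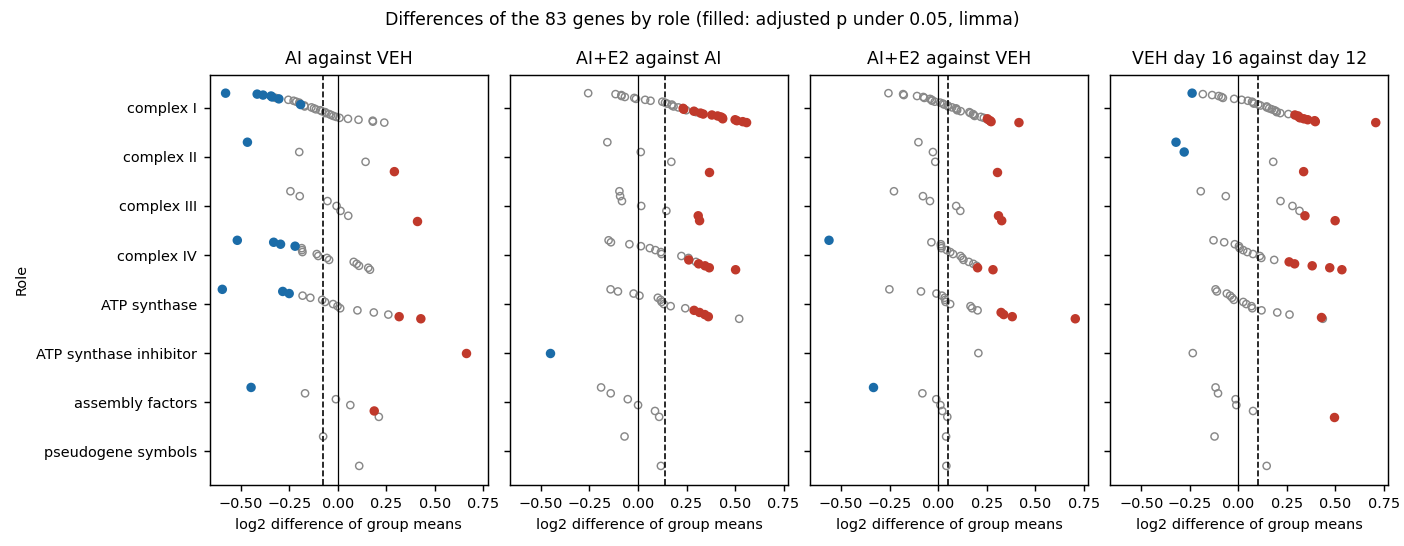
Log2 difference of group means for each of the 83 genes (points) by role in the 4 comparisons, with genes called by limma filled (red higher, blue lower), the others open, and the dashed line at the median of the 83. Complex I holds 14 filled red points and no blue one in AI+E2 against AI, and Atp5if1 is the only blue point of that comparison.

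Complex II is both a chain complex and an enzyme of the citric acid cycle, with a catalytic pair, Sdha and Sdhb, and a membrane pair, Sdhc and Sdhd. Sdha, the flavoprotein, read 10.40, 10.39 and 10.59 on D12, 10.14, 10.19 and 10.08 in VEH, 10.44, 10.34 and 10.51 in AI, and 10.38, 10.42 and 10.54 in AI+E2. VEH lay below the 3 other groups, which overlapped with each other. Sdha fell by 0.32 from D12 to VEH (adjusted p = 0.00886), rose by 0.29 in AI against VEH (adjusted p = 0.00946) and differed by 0.01 between AI+E2 and AI (95% interval -0.14 to 0.17). It was higher by 0.31 in AI+E2 than in VEH (adjusted p = 0.00907), a call lost without AI+E2 replicate 3.

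Sdhc, a membrane anchor, read 10.64, 10.64 and 10.68 on D12, 11.00, 11.00 and 10.98 in VEH, 10.53, 10.66 and 10.38 in AI, and 10.86, 10.88 and 10.93 in AI+E2. VEH was the highest group and AI the widest, and AI overlapped with D12 only. Sdhc rose by 0.34 from D12 to VEH (adjusted p = 0.00353), fell by 0.47 under AI (1.38-fold, adjusted p = 0.000108) and rose by 0.36 in AI+E2 against AI (adjusted p = 0.00134).

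Sdhb, the iron-sulphur subunit, fell by 0.28 from D12 to VEH (adjusted p = 0.00517). Under AI it differed by 0.14 from VEH (adjusted p = 0.111), and in AI+E2 by -0.16 from AI (adjusted p = 0.0897), and the 2 quantile normalizations carried both differences past the threshold. Sdhd passed the test in none of the comparisons, with -0.20 under AI (95% interval -0.35 to -0.05) and 0.17 in AI+E2 against AI (0.02 to 0.32). Whether Sdha and Sdhc differ in their response was not tested.

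Complex III hands electrons from ubiquinol to cytochrome c. Of 7 genes, 1 rose under AI, 2 rose in AI+E2 over AI, 2 in AI+E2 over VEH and 2 from D12 to VEH. As shares of the 7 genes these were 14.3%, 28.6%, 28.6% and 28.6%. All genes gave 5.91%, 8.65%, 6.11% and 6.91% in this order, and the strongly detected ones 11.3%, 21.1%, 13.8% and 15.9%. Uqcrc1, a core protein, read 9.31, 9.25 and 9.06 in VEH, 9.68, 9.61 and 9.56 in AI, and 9.55, 9.55 and 9.50 in AI+E2. Both AI groups lay above VEH and above D12, which read 9.16, 9.31 and 9.35. Uqcrc1 rose by 0.41 in AI against VEH (adjusted p = 0.000780) and by 0.33 in AI+E2 against VEH (adjusted p = 0.00607), and AI+E2 differed from AI by -0.08 (95% interval -0.24 to 0.07).

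Its partner core protein Uqcrc2 read 10.10, 10.12 and 9.90 in VEH, 9.92, 10.04 and 10.15 in AI, and 10.40, 10.26 and 10.40 in AI+E2. AI overlapped with VEH, and AI+E2 was above both. It rose by 0.32 in AI+E2 against AI (adjusted p = 0.0109) and by 0.31 against VEH (adjusted p = 0.0123, lost without VEH replicate 3, AI+E2 replicate 1 or AI+E2 replicate 3). Uqcrh, the hinge protein, rose by 0.31 in AI+E2 against AI (adjusted p = 0.0237) and by 0.34 from D12 to VEH (adjusted p = 0.0170).

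Uqcr11 rose by 0.50 from D12 to VEH (adjusted p = 0.0219), a call lost without VEH replicate 1 or VEH replicate 2, and D12 replicate 2 lay low at 10.42 beside 10.89 and 11.10. The Rieske iron-sulphur protein Uqcrfs1 passed the test nowhere, with 0.01 under AI (95% interval -0.22 to 0.24) and -0.09 in AI+E2 against AI (-0.32 to 0.14). Uqcrb and Uqcrq were likewise not called in any comparison.

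Complex IV reduces oxygen, and several of its subunits exist as paired isoforms of different tissues. Of 16 genes, 4 fell under AI, 5 rose when E2 was added to AI, and 5 rose from D12 to VEH. Between AI+E2 and VEH, 2 were higher and 1 was lower in AI+E2. The medians were -0.10, 0.17, 0.09 and 0.10 in this order. The fall under AI took in 11.0% of all genes and 25.8% of the strongly detected ones. For the rise with E2 these shares were 8.65% and 21.1%, and for the rise from D12 to VEH 6.91% and 15.9%. In AI+E2 against VEH they were 6.11% and 13.8% higher, and 6.90% and 14.1% lower. Only for the rises with E2 and from D12 to VEH was the share of complex IV above that of the strongly detected genes. No difference from these shares was tested. Ndufa4, once counted with complex I, is placed here.

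Cox5a had the smallest adjusted p of the set in AI+E2 against AI. Its arrays read 10.42, 10.47 and 10.45 in VEH, 10.19, 10.27 and 10.23 in AI, 10.73, 10.76 and 10.70 in AI+E2, and 10.48, 10.49 and 10.35 on D12. The 3 treatment groups were separate, and D12 lay with VEH. Cox5a fell by 0.22 under AI (adjusted p = 0.0129), rose by 0.50 in AI+E2 against AI (1.42-fold, SE 0.0564, adjusted p = 1.78e-05) and by 0.28 in AI+E2 against VEH (adjusted p = 0.00307). A further probe set of Cox5a gave -0.27, 0.47 and 0.20. The fall under AI lost its call after the 2 quantile normalizations (-0.13 and -0.18).

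The ubiquitous subunit Cox4i1 read 10.31, 10.42 and 10.17 in VEH, 10.07, 10.17 and 10.11 in AI, and 10.47, 10.29 and 10.38 in AI+E2. AI lay below AI+E2 and reached up to the lowest VEH array. Cox4i1 rose by 0.26 in AI+E2 against AI (adjusted p = 0.0304, a call lost after quantile normalization over genes) and differed by -0.18 under AI (adjusted p = 0.114).

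Its isoform Cox4i2, known from lung and from the pericytes of vessels, was at 7.00, 7.06 and 7.06 in VEH and at 6.55, 6.58 and 6.44 in AI. In AI+E2 it read 6.59, 6.45 and 6.40, and on D12 6.52, 6.67 and 6.52. VEH stood above the 3 other groups, which overlapped. Cox4i2 rose by 0.47 from D12 to VEH (adjusted p = 0.000280), fell by 0.52 under AI (adjusted p = 4.66e-05) and was lower by 0.56 in AI+E2 than in VEH (1.48-fold, adjusted p = 3.52e-05). AI+E2 and AI differed by -0.04, with a 95% interval of -0.19 to 0.10.

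Markers of vessels were read in the same comparisons, all of which share the 3 VEH arrays, so that their directions are not independent of each other. Of 11 endothelial markers, 10 fell under AI, 7 were lower in AI+E2 than in VEH, and 10 rose from D12 to VEH. Their summed linear signal was 7260 to 7479 on the VEH arrays, 4861 to 5640 in AI, 5262 to 5573 in AI+E2 and 5092 to 5773 on D12. Of 11 markers of smooth muscle and pericytes, 5 fell under AI, 4 were lower in AI+E2 than in VEH, and 8 rose from D12 to VEH. Their sum was 7780 to 9513 in VEH, 6619 to 7791 in AI, 6918 to 7088 in AI+E2 and 6136 to 6491 on D12. Of all genes 11.0% fell under AI, 6.90% were lower in AI+E2 than in VEH, and 6.91% rose from D12 to VEH. For the strongly detected genes these shares were 25.8%, 14.1% and 15.9%. Pdgfrb, a receptor of pericytes, differed by -0.33, -0.31 and 0.33 in these 3 comparisons (adjusted p = 0.00190, 0.00457 and 0.00409), and Rgs5, another pericyte gene, by -0.07, -0.19 and 0.18 without passing the test. Between AI+E2 and AI, 1 endothelial marker was higher in AI+E2, and 0 markers of smooth muscle and pericytes passed the test by limma (0 at an unadjusted p under 0.05 and 0 by the methods' t-test). The part of these cells in the change of Cox4i2, and in the members' differences in the comparisons with VEH, was not tested, and RMA gives no value of 0 from which a marker could be called absent.

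**Figure D4:**
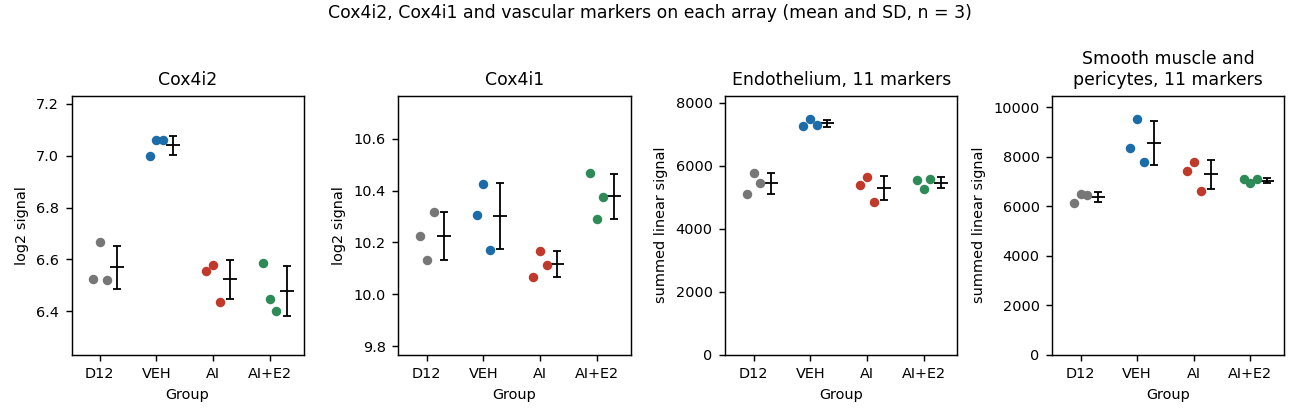
Log2 signal of Cox4i2 and Cox4i1 and summed linear signal of 11 endothelial and 11 smooth muscle and pericyte markers on each of the 12 arrays (points), with group mean and SD (n = 3); only the marker axes start at 0. Cox4i2 and both marker sums are highest in VEH, whereas Cox4i1 is highest in AI+E2.

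Cox6a1, the isoform of most tissues, rose by 0.53 from D12 to VEH (adjusted p = 0.000924), with 10.84, 10.90 and 10.99 on D12 and 11.65, 11.32 and 11.35 in VEH, and fell by 0.30 under AI (adjusted p = 0.0296). Cox7a2 fell by 0.33 under AI (adjusted p = 0.0182) and rose by 0.35 in AI+E2 against AI (adjusted p = 0.0179), and a further probe set gave -0.38 and 0.39. AI replicate 2 was high for Cox7a2, at 11.07 beside 10.69 and 10.75, yet below all VEH arrays.

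Ndufa4 rose by 0.37 in AI+E2 against AI (adjusted p = 0.00494) and Cox5b by 0.31 (adjusted p = 0.0132). Cox7a2l, which helps to join complexes into supercomplexes, rose by 0.38 from D12 to VEH (adjusted p = 0.0235), and Cox7b (0.29) and Cox5b (0.26) rose in the same comparison. Of the isoforms of muscle and testis, Cox6b2 rose by 0.20 in AI+E2 against VEH (adjusted p = 0.0428), and Cox6a2, Cox8b and Cox8c passed the test nowhere. Cox8b read 5.06 to 5.33 over the 12 arrays. Of 10 striated muscle markers, 0 passed limma's test under AI (0 at an unadjusted p under 0.05 and 0 by the methods' t-test), and their summed signal was 1128 to 1341 over the day 16 arrays. Cox6c, Cox7c and Cox8a were not called either, with differences between -0.06 and 0.16, and Cox6b1, Cox7a1 and Ndufa4l2 were not analysed here.

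The ATP synthase has a catalytic head outside the membrane and a rotor in it. Of 15 genes, 2 rose and 3 fell under AI, 4 rose when E2 was added to AI, 4 were higher in AI+E2 than in VEH, and 1 rose from D12 to VEH. Under AI 5.91% of all genes rose and 11.0% fell, and of the strongly detected ones 11.3% and 25.8%. The rise with E2 took in 8.65% and 21.1%, that over VEH 6.11% and 13.8%, and that from D12 6.91% and 15.9%. For the fall under AI and the rise from D12, the ATP synthase share was below that of the strongly detected genes. Its other shares were above, and no difference was tested. In the head, the catalytic β subunit Atp5f1b read 11.80, 11.85 and 11.76 in VEH, 11.55, 11.52 and 11.59 in AI, and 11.82, 11.82 and 11.89 in AI+E2. AI lay below VEH and AI+E2, which overlapped. Atp5f1b fell by 0.25 under AI (1.19-fold, SE 0.0533, adjusted p = 0.00361) and rose by 0.29 in AI+E2 against AI (adjusted p = 0.00169).

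The δ subunit Atp5f1d fell by 0.28 (adjusted p = 0.00700) and rose by 0.32 (adjusted p = 0.00426) in these comparisons. The α subunit Atp5f1a was not called, with -0.00 under AI (95% interval -0.13 to 0.13) and 0.17 in AI+E2 against AI (0.04 to 0.30), nor was the γ subunit Atp5f1c, with -0.14 and 0.13. Whether the head subunits differ from each other was not tested.

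In the membrane part, Atp5me, the e subunit, read 7.09, 6.94 and 6.82 in VEH, 6.37, 6.45 and 6.24 in AI, 6.70, 6.62 and 6.78 in AI+E2, and 6.41, 6.53 and 6.64 on D12. VEH was highest and AI lowest among the treatment groups, with no overlap between them. It fell by 0.60 under AI (1.51-fold, adjusted p = 9.55e-05), the largest fall of the set there, rose by 0.34 in AI+E2 against AI (adjusted p = 0.0109) and rose by 0.42 from D12 to VEH (adjusted p = 0.00358).

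Subunit c, which forms the rotor ring, is encoded by 3 genes with the same mature protein. Atp5mc1 rose by 0.43 under AI (adjusted p = 0.00350), from 9.84, 9.65 and 9.39 in VEH to 10.09, 10.06 and 10.01 in AI. VEH spread more widely than AI, without overlap. Atp5mc2 differed by 0.26 (adjusted p = 0.118) and Atp5mc3 by -0.07 (adjusted p = 0.618). Compared with VEH, Atp5mc1 in AI+E2 was higher by 0.32 (adjusted p = 0.0272) and Atp5mc2 by 0.38 (adjusted p = 0.0259). Both calls rest on few arrays: that of Atp5mc1 was lost without VEH replicate 2, VEH replicate 3, AI+E2 replicate 1 or AI+E2 replicate 2, and that of Atp5mc2 without VEH replicate 3, AI+E2 replicate 1 or AI+E2 replicate 2.

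Atp5pb, of the stalk that holds the head in place, rose by 0.36 in AI+E2 against AI (adjusted p = 0.00281) and by 0.34 against VEH (adjusted p = 0.00469), from 10.14, 10.07 and 10.05 in VEH and 10.00, 10.15 and 10.03 in AI to 10.47, 10.44 and 10.36. VEH and AI lay together and below AI+E2. Atp5po, of the same stalk, rose by 0.32 under AI (adjusted p = 0.0355), a call lost on leaving out any array of the comparison except VEH replicate 1.

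Atp5mg, the g subunit, varied most among the arrays. It read 7.32, 7.13 and 7.90 on D12, 7.88, 8.09 and 7.68 in VEH, 7.73, 8.10 and 8.38 in AI, and 8.77, 8.56 and 8.44 in AI+E2. AI+E2 lay above the other groups, which overlapped. Atp5mg rose by 0.71 in AI+E2 against VEH (SE 0.180, adjusted p = 0.0160), lost without VEH replicate 3 or AI+E2 replicate 1, and its difference of 0.52 in AI+E2 against AI was the largest of a member that was not called (adjusted p = 0.0754).

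Atp5if1, the inhibitor that stops the ATP synthase from running backwards and splitting ATP, went against most members. It read 10.27, 10.07 and 10.19 in VEH, 10.92, 10.88 and 10.71 in AI, 10.41, 10.34 and 10.40 in AI+E2, and 10.41, 10.28 and 10.55 on D12. The AI arrays lay above all others, and AI+E2 lay above VEH and within the range of D12. Atp5if1 rose by 0.66 under AI (1.58-fold, SE 0.0790, adjusted p = 2.38e-05), the largest rise of the set there, and was the only member that fell in AI+E2 against AI as deposited, by 0.45 (adjusted p = 0.00109). AI+E2 and VEH differed by 0.21 (adjusted p = 0.111), and VEH and D12 by -0.23 (adjusted p = 0.0782), which became a fall (-0.30 and -0.27) after the 2 quantile normalizations.

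**Figure D5:**
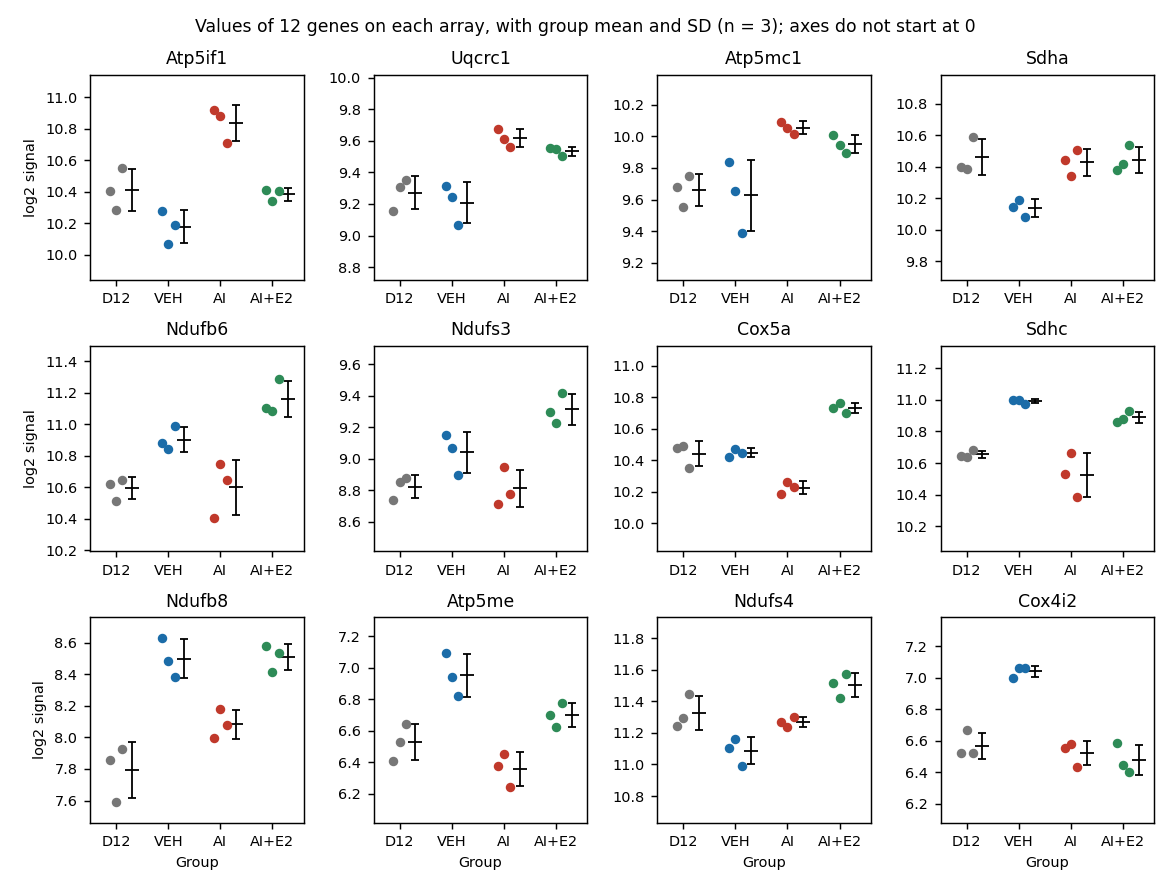
Log2 signal of 12 genes on each array (points, 3 per group) with the group mean and SD at the right of the points; each axis spans the same range and does not start at 0. AI is the highest group for Atp5if1, the lowest treatment group for Ndufb6, Cox5a, Sdhc, Ndufb8 and Atp5me, and VEH stands apart from the others for Sdha and Cox4i2.

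Of the 6 assembly factors, Sdhaf1, needed for the iron-sulphur clusters of Sdhb, changed in 3 comparisons, all of which share the 3 VEH arrays. Between AI+E2 and AI it differed by 0.11 (adjusted p = 0.579). It read 8.15, 8.23 and 8.44 on D12, 9.01, 8.80 and 8.49 in VEH, 8.30, 8.30 and 8.34 in AI, and 8.43, 8.37 and 8.48 in AI+E2. VEH was the highest and the widest group, and its replicate 3 lay close to AI+E2. Sdhaf1 rose by 0.49 from D12 to VEH (adjusted p = 0.00674), fell by 0.45 under AI (adjusted p = 0.00691) and was lower by 0.34 in AI+E2 than in VEH (adjusted p = 0.0451, lost on leaving out any 1 array of the comparison except VEH replicate 3). Ndufaf4, an early factor of complex I, rose by 0.19 under AI (adjusted p = 0.0340), a call lost without VEH replicate 1, VEH replicate 2, AI replicate 1 or AI replicate 3. Sdhaf2, Sdhaf3, Ndufaf1 and Ndufaf3 passed the test nowhere, nor did the pseudogene symbols Cox6c-ps1 and Ndufs6-ps1. Probes of a chain gene may also bind its near-identical gene copies, which the array data do not separate.

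Genes around the chain were read from lists chosen beside the members. Under AI 5.91% of all genes rose and 11.0% fell, and of the strongly detected genes 11.3% and 25.8%. When E2 was added, 8.65% of all genes rose and 4.13% fell, and of the strongly detected ones 21.1% and 8.41%. The counts of this list and of those that follow are read beside these shares, and no difference from them was tested. Among 23 other assembly factors and electron carriers, which include Atp5if1, 2 rose and 5 fell under AI, and 3 rose and 1 fell when E2 was added, with medians of -0.07 and 0.03. Acad9, an assembly factor of complex I with a fatty acid dehydrogenase fold, had the largest differences of these: -1.12 under AI (adjusted p = 6.60e-09), 1.26 in AI+E2 against AI (adjusted p = 6.84e-09) and 0.46 from D12 to VEH (adjusted p = 0.000221). Etfa and Etfb, the electron transfer flavoprotein that brings electrons from fatty acid oxidation, differed by -0.44 and -0.37 under AI and by 0.54 and 0.30 in AI+E2 against AI, and all 4 differences passed the test. Cytochrome c, Cycs, differed by -0.12 (adjusted p = 0.253) and 0.07 (adjusted p = 0.558).

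Of 14 citric acid cycle genes, 3 fell under AI and 4 rose when E2 was added, with medians of -0.07 and 0.06. Idh2, the mitochondrial NADP-dependent isocitrate dehydrogenase, differed by -0.99 (adjusted p = 6.15e-07) and 0.68 (adjusted p = 4.57e-05), and Suclg1, of succinyl-CoA ligase, by -0.29 (adjusted p = 0.00454) and 0.43 (adjusted p = 0.000283). Among 68 genes of mitochondrial ribosomal proteins, 6 rose and 2 fell under AI, and 4 rose and 7 fell when E2 was added, with medians of 0.01 and 0.00. Of 39 genes with symbols of cytosolic ribosomal proteins, 2 rose under AI, and 5 rose and 1 fell when E2 was added, with medians of 0.03 and 0.11. In AI+E2 against VEH 9 of the 39 rose (6.11% of all genes, 13.8% of the strongly detected ones), with a median of 0.16. From D12 to VEH 7 rose (6.91% and 15.9%), with a median of 0.095. The median deviation of the 39 was -0.02, 0.02 and 0.02 on the AI arrays and 0.20, 0.08 and 0.15 on the AI+E2 arrays.

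Regulators of mitochondrial genes moved little at the level of their own RNA. Of 20, 0 were called under AI by limma (2 higher and 1 lower at an unadjusted p under 0.05; 0 by the methods' t-test) and 1 fell when E2 was added: Ppargc1a, a coactivator, differed by -0.25 (adjusted p = 0.00669). In that comparison Esrra differed by 0.00, Nrf1 by 0.01, Gabpa by -0.01 and Tfam by -0.03, with adjusted p from 0.839 to 0.989. Among 8 genes of mitochondrial steroid synthesis, 4 rose and 1 fell under AI and 2 rose when E2 was added. Fdx1, the electron donor of side-chain cleavage, rose by 1.18 under AI (adjusted p = 1.66e-08), and Nnt, which makes mitochondrial NADPH, differed by -0.43 (adjusted p = 0.000321) and by 0.56 in AI+E2 against AI (adjusted p = 3.46e-05).

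Markers of other cells also differed between the groups. Of 5 red blood cell markers, 3 fell in AI+E2 against AI, and their summed signal was 1907 to 2524 in AI and 1102 to 1212 in AI+E2. Of 12 macrophage markers, 1 rose and 1 fell there, 4 rose under AI and 5 were higher in AI+E2 than in VEH. Their sums were 3926 to 4128 on D12, 4242 to 4318 in VEH, 4770 to 5100 in AI and 4580 to 4790 in AI+E2. Of 8 luteal markers, 2 fell from D12 to VEH and 2 rose in AI+E2 against AI, with sums of 30270 to 31380 in AI and 30700 to 31510 in AI+E2, and 5 rose and 1 fell under AI, where VEH summed to 25800 to 27210. The part of these cells in the members' differences was not tested. Of all genes 6.11% were higher in AI+E2 than in VEH and 3.23% fell from D12 to VEH. For the strongly detected genes these shares were 13.8% and 6.84%.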

How the data were processed

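Luteal RNA of individual rats was hybridised to Affymetrix Rat Gene 1.0 ST arrays. Per the labels' processing notes, RMA in R 2.12.2 made the log2 values that the authors deposited, which cover 29214 probe sets. RMA corrects the background, equalises the arrays' distributions and can compress large differences. Probe sets with 1 gene symbol (15310) were kept, those with several (323) or none listed (13581) were left out, and the highest mean decided among probe sets of a gene, which left 14506 genes. Dim probe sets were kept. Positions are those of RefSeq.

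A mean per group was fitted over all 12 arrays with limma 3.58.1 in R 4.3.3 (lmFit, eBayes; 8 residual and 6.66 prior degrees of freedom), with Benjamini-Hochberg adjustment over all genes, and was tested on simulated data. The number of arrays limits the precision. Summaries and figures were made in Python 3.11.15 with pandas 2.3.3, numpy 2.4.6 and matplotlib 3.10.9. Alternatives were the methods' t-test, renewed quantile normalization, the mean of probe sets, removal of the lowest 25% or 50% of genes, the compared groups alone, the replicate number as a block and leaving out each array. Quantile normalization of all probe sets was added after seeing the data. Named were, per comparison, the 8 largest rises and falls among called members, the tissue isoforms, core subunits, assembly factors, and up to 3 called genes of other lists, of which not all are printed. Markers were summed as powers of 2 of the log2 values. Members and lists were chosen with earlier results of these data known.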

Additional observations from a re-analysis of the deposited data

How the results depend on the processing

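Of the largest rises and falls among called members (44 values), each kept its direction under the alternatives that could be run on it (39 of the 44 without the lowest 50% of genes, where all 39 kept their call), and 44 kept their call with the mean of probe sets or without the lowest 25% of genes, 43 under either quantile normalization, 41 with the replicate number as a block and 40 with the compared groups alone. The call was kept by 5 with the methods' t-test, and by 32 whichever array was left out. Counts moved by over 1.5 times as follows, taking first AI against VEH, then AI+E2 against AI and against VEH, and last VEH against D12. The methods' t-test, which estimates each gene's spread from 3 arrays per group alone, called 1, 4, 2 and 1 members higher and 3, 0, 1 and 0 lower, beside 6, 26, 13 and 19 higher and 16, 1, 2 and 3 lower by limma. Of all 14506 genes this t-test called 239, 498, 288 and 33 higher and 424, 260, 276 and 24 lower. Quantile normalization again called 12 members higher in AI against VEH, 4 lower in AI+E2 against AI and 5 lower in VEH against D12, with medians of -0.011 and 0.087 in AI against VEH and AI+E2 against AI (as deposited -0.08 and 0.14), and over all probe sets 3 and 5 lower in the same comparisons. The compared groups alone gave 2 lower in AI+E2 against AI and 12 higher in VEH against D12. Without the lowest 50% of genes 1 was lower in AI+E2 against VEH. The cause was not tested.

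Leaving out 1 array gave 4 to 5 higher and 10 to 18 lower in AI against VEH (10 without AI replicate 1; median -0.13 to -0.061, the lowest without AI replicate 2). In AI+E2 against AI it gave 15 to 26 higher (17, 16 and 15 without AI replicate 1, AI+E2 replicate 1 and AI+E2 replicate 3) and 1 to 2 lower (2 without AI+E2 replicate 3), with medians of 0.12 to 0.17. In AI+E2 against VEH it gave 6 to 12 higher (6, 6 and 7 without VEH replicate 3, AI+E2 replicate 1 and AI+E2 replicate 3) and 1 to 3 lower (1 without VEH replicate 1, VEH replicate 2 or any AI+E2 array). In VEH against D12 it gave 10 to 21 higher (11, 10 and 10 without VEH replicate 2, D12 replicate 1 and D12 replicate 2), 2 to 3 lower and medians of 0.0535 to 0.16 (the highest without D12 replicate 3).

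Of 18 pairs of same-numbered arrays of different groups, 4 had deviations that correlated above 0.1 (-0.49 to 0.34). Of 36 pairs with different numbers, 8 did (-0.39 to 0.455). Among the best matches, 10 of 36 had the same number. Deviations from the mean of so small a group depend on each other, so whether the numbers pair the animals cannot be decided from these values. With the replicate block, 5, 22, 11 and 14 members were higher and 15, 1, 1 and 2 lower in the 4 comparisons.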
